A study of Mus musculus with 6 samples.

Results

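The genes of the first steps of T cell receptor (TCR) signalling are described here in γδ thymocytes, the thymic T cells whose receptor is built from a γ and a δ chain. They were matched in the tables by their symbols, from a choice made with earlier results of these data known, as *Cd3e*, *Cd247*, *Lck*, *Zap70*, *Lat*, *Lcp2*, *Rasgrp1*, *Themis* and *Ubash3a*, and are 9 of 41195 genes in the deposited tables. All 9 passed the filter on low counts, so that none was left untested among the 13185 genes of the fit. Gene expression had been measured by poly(A) RNA sequencing in 3 libraries labelled *Rag1Cre-Nfatc1fl/fl* and 3 labelled *Nfatc1fl/fl*. *Rag1Cre-Nfatc1fl/fl* mice express Cre recombinase from the *Rag1* locus, which is active in early thymocytes, and both of their *Nfatc1* alleles have loxP sites around exon 3. The *Nfatc1fl/fl* mice carried the same loxP-flanked alleles without Cre. Per the methods of the study, the animals were 4 to 6 weeks old, sex- and age-matched and on a C57/B6 background, and the cells were enriched magnetically with a kit for TCRγ/δ cells. The question was which transcripts of γδ thymocytes change when the transcription factor NFATc1 is removed at this stage, and whether each library is a separate animal is not in the labels, so that p-values refer to the spread of these libraries, which may be technical.

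When a TCR is engaged, the kinase Lck phosphorylates the CD3 and ζ chains of the receptor complex, and the kinase ZAP-70 docks there and phosphorylates the adaptors LAT and SLP-76. The complex that assembles on these adaptors activates phospholipase Cγ, whose product diacylglycerol recruits the Ras activator RasGRP1, while released calcium activates calcineurin and through it the NFAT factors. In the thymus the strength of this signal is a known influence on the choice between the αβ and γδ lineages and among γδ subsets.

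Library totals ran from 20734771 to 22638531 reads per gene table. Genotypes separated along the first principal component (64.8% of variance), whereas *Rag1Cre-Nfatc1fl/fl* replicate 3 stood away from all other libraries along the second (16.0%). In that library the summed level of 6 macrophage and monocyte genes was 207 CPM (reads relative to the library total, scaled by TMM), the highest of a range of 40.9 to 207 in the *Rag1Cre-Nfatc1fl/fl* libraries against 15.8 to 71.3 in the *Nfatc1fl/fl* libraries, and that of 12 αβ and double-positive thymocyte genes was 2077 CPM, in a range of 1257 to 2077 in *Rag1Cre-Nfatc1fl/fl* libraries and 1747 to 1765 in *Nfatc1fl/fl* libraries. None of the 6 macrophage genes was called, and among the 12 thymocyte genes *Cd4* was called higher. The γδ label was held against 8 marker genes, of which all were detected in every library, with a summed level of 2064 to 2426 CPM in *Rag1Cre-Nfatc1fl/fl* libraries and 2788 to 2926 CPM in *Nfatc1fl/fl* libraries, and 4 of the 8 were called lower (*Trdc*, *Tcrg-C1*, *Sox13* and *Cd163l1*). Of 6 B cell genes 5 were under 1 CPM in every library, and the other, *Cd79b*, had 16.0, 13.8 and 18.5 CPM in *Rag1Cre-Nfatc1fl/fl* libraries and 27.3, 27.7 and 24.3 CPM in *Nfatc1fl/fl* libraries and was called lower (log2 fold change -0.72, edgeR adjusted p = 0.00654). *Nfatc1* itself averaged 371 ± 63.8 CPM in *Rag1Cre-Nfatc1fl/fl* libraries and 204 ± 5.76 CPM in *Nfatc1fl/fl* libraries (SD, n = 3 each; log2 fold change 0.87, SE 0.128, edgeR adjusted p = 0.0028), but the counts cover the whole gene and the deletion removes exon 3 only, and thus do not test whether exon 3 was lost or whether labels are right. Whether the differences below arise from other proportions of cell types or from less RNA per cell cannot be told apart in bulk libraries, and the part of the marker shifts in them was not tested.

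Of the 9 genes, 4 were called changed and 5 were not. *Zap70* was higher in the libraries labelled *Rag1Cre-Nfatc1fl/fl*, and *Rasgrp1*, *Themis* and *Ubash3a* were lower. A call required edgeR's adjusted p to be under 0.01 with a log2 fold change beyond 0.5 in either direction, which held for 9.98% of the 13185 tested genes (6.47% higher and 3.51% lower). In 5 of the 9 genes, the 4 called ones and *Cd247*, the CPM ranges of the genotypes did not overlap, which was the case for 46.7% of all tested genes. Without *Rag1Cre-Nfatc1fl/fl* replicate 3 the counts of the 9 were also 1 higher and 3 lower. The median log2 fold change of the 9 was -0.15, beside -0.0069 over all tested genes. The plot of CPM by library shows these differences beside the spread of the replicates.

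**Figure D1:**
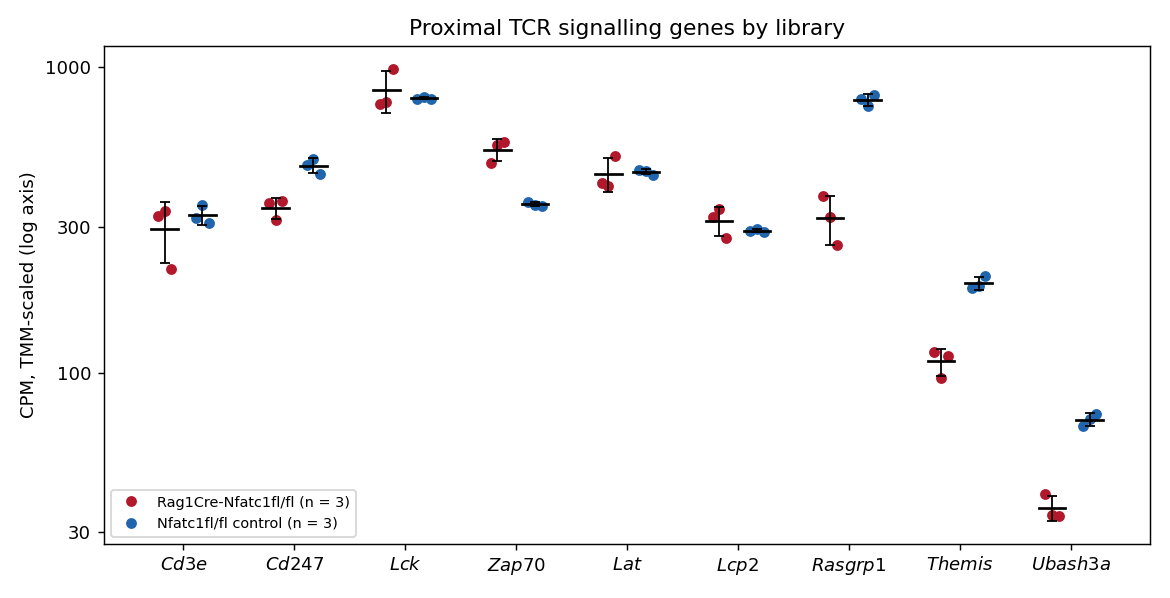
CPM (log axis, scaled by TMM) of the 9 genes in each library, with *Rag1Cre-Nfatc1fl/fl* left of *Nfatc1fl/fl*. Points are libraries, and bars are the mean and SD (n = 3 each). *Rasgrp1*, at 261 to 377 CPM in *Rag1Cre-Nfatc1fl/fl* libraries and 746 to 810.2 CPM in *Nfatc1fl/fl* libraries, shows the widest gap, and *Zap70* is the one called gene whose *Rag1Cre-Nfatc1fl/fl* points lie above.

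The upstream DNA of the 4 called genes is shown because NFAT factors bind the core GGAAA, and capitals mark this core or its reverse complement TTTCC on the printed strand. The stretches are the bases before the gene start given in the files, taken from the RefSeq promoter windows on GRCm38, printed 5′ to 3′ on the strand of the gene, and where RefSeq lists several windows the most upstream one was used. The core contains GGAA, the core of ETS factors, so a match cannot tell these families apart. A match of either orientation was found in 61.3% of 32851 RefSeq promoter windows of 300 bases (250 before and 50 after the annotated start). There were 2 or more in 26.7% of windows and 5 or more in 0.728%. The 4 sequences are:
*Zap70*, chr1:36761548-36761797, plus strand: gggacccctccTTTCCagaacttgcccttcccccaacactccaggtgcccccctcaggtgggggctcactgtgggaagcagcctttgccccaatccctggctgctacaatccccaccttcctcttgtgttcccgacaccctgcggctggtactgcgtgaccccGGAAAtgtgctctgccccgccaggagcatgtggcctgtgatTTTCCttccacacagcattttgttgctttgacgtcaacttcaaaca
*Themis*, chr10:28668110-28668359, plus strand: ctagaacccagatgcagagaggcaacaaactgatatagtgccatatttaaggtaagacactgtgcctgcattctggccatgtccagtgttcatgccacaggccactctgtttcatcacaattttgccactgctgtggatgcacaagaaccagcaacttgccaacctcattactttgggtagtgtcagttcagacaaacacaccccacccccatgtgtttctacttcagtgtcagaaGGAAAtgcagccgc
*Rasgrp1*, chr2:117343002-117343127, minus strand: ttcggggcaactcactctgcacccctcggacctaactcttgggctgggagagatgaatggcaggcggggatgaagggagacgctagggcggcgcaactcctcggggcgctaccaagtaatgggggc
*Ubash3a*, chr17:31207816-31207872, plus strand: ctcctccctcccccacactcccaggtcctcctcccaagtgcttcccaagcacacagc

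Over the 300-base windows the core occurred 5 times for *Zap70* (3 in the printed part), once each for *Themis*, *Rasgrp1* and *Lcp2*, and 2 times each for *Cd3e* and *Lat*. That of *Rasgrp1* lies outside the printed part. It did not occur for *Cd247*, *Lck* and *Ubash3a*. This counts letters only and was not compared with binding.

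Within the receptor complex neither gene of the 9 was called. *Cd3e* (chromosome 9, 44998740 to 45009627, minus strand) encodes CD3ε, a chain that pairs with CD3γ and CD3δ and carries an activation motif. Its level was 327, 339 and 218 CPM in *Rag1Cre-Nfatc1fl/fl* replicates 1, 2 and 3, against 321, 353 and 309 CPM in *Nfatc1fl/fl* replicates. The groups overlapped, and *Rag1Cre-Nfatc1fl/fl* replicate 3 lay below the other libraries. The log2 fold change was -0.15 (SE 0.165, 95% interval -0.54 to 0.23, edgeR adjusted p = 0.527), and without *Rag1Cre-Nfatc1fl/fl* replicate 3 it was 0.03.

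*Cd247* (chromosome 1, 165788681 to 165877277, plus strand) encodes the ζ chain, which carries most of the activation motifs of the complex. It stood at 358, 315 and 365 CPM in *Rag1Cre-Nfatc1fl/fl* libraries and at 477, 502 and 448 CPM in *Nfatc1fl/fl* libraries, with no overlap between the genotypes. The means of 346 ± 27.1 and 476 ± 26.8 CPM (SD, n = 3 each) differed by -0.46 on the log2 scale (SE 0.0942), with an edgeR adjusted p of 0.0114 that missed the threshold and a fold below the minimum of 0.5. When only library size was used for scaling it passed, at -0.56 (adjusted p = 0.0053). *Pou2f1*, on the other strand, overlaps *Cd247* and held 311 to 793 reads per library, and because the kit does not mark strand, reads from the shared stretch cannot be assigned to one gene.

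Of the 2 kinases, *Lck* did not pass and *Zap70* was higher. *Lck* (chromosome 4, 129548344 to 129573641, minus strand), the Src-family kinase that starts the cascade, had 759, 769 and 989 CPM in *Rag1Cre-Nfatc1fl/fl* libraries and 786, 797 and 787 CPM in *Nfatc1fl/fl* libraries. *Rag1Cre-Nfatc1fl/fl* replicates 1 and 2 lay below the narrow control range and replicate 3 above it, and the log2 fold change was 0.09 (95% interval -0.19 to 0.36, edgeR adjusted p = 0.625). Without *Rag1Cre-Nfatc1fl/fl* replicate 3 it was -0.04.

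*Zap70* (chromosome 1, 36761798 to 36782818, plus strand), the kinase recruited to phosphorylated CD3 and ζ chains, stood at 487, 555 and 567 CPM in *Rag1Cre-Nfatc1fl/fl* libraries, against 362, 355 and 350.4 CPM in *Nfatc1fl/fl* libraries. Every *Rag1Cre-Nfatc1fl/fl* library lay above every control, and the spread within *Rag1Cre-Nfatc1fl/fl* was wider than that within *Nfatc1fl/fl*. The means were 537 ± 43.6 and 356 ± 6.11 CPM (SD, n = 3 each), a 1.51-fold difference (log2 fold change 0.59, SE 0.0899, edgeR adjusted p = 0.00323). The call was lost under 7 of 20 alternatives: with scaling by library size only (0.49), with length-normalised values (TPM, 0.43), without *Rag1Cre-Nfatc1fl/fl* replicate 2 (adjusted p = 0.0173), and without *Nfatc1fl/fl* replicate 1, 2 or 3 (adjusted p = 0.0208, 0.0238 and 0.0249).

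The 2 adaptors of the list were not called. *Lat* (chromosome 7, 126363824 to 126369570, minus strand), the membrane adaptor that ZAP-70 phosphorylates, had 419, 409 and 512 CPM in *Rag1Cre-Nfatc1fl/fl* libraries and 459.9, 457 and 445 CPM in *Nfatc1fl/fl* libraries. The *Rag1Cre-Nfatc1fl/fl* values bracketed the control values, with replicate 3 on top, and the log2 fold change was -0.02 (95% interval -0.27 to 0.22, edgeR adjusted p = 0.886). *Lcp2* (chromosome 11, 34046920 to 34092295, plus strand), which encodes the cytosolic adaptor SLP-76, had 323, 342 and 277 CPM in *Rag1Cre-Nfatc1fl/fl* libraries and 290.2, 296 and 289 CPM in *Nfatc1fl/fl* libraries. Here *Rag1Cre-Nfatc1fl/fl* replicate 3 lay below and the other 2 above the controls, and the log2 fold change was 0.11 (95% interval -0.12 to 0.33, edgeR adjusted p = 0.459). An overlapping gene on the other strand, *4930469K13Rik*, held 30 to 51 reads per library.

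The largest difference among the 9 was that of *Rasgrp1* (chromosome 2, 117279993 to 117343001, minus strand), the diacylglycerol-dependent exchange factor that activates Ras in thymocytes. It had 377, 324 and 261 CPM in *Rag1Cre-Nfatc1fl/fl* libraries, against 787, 746 and 810.2 CPM in *Nfatc1fl/fl* libraries. No *Rag1Cre-Nfatc1fl/fl* library came near the control range, and replicate 3 was the lowest. The means of 321 ± 58.1 and 781 ± 32.6 CPM (SD, n = 3 each) correspond to 0.411-fold and -1.28 on the log2 scale (SE 0.137, 95% interval -1.60 to -0.97, edgeR adjusted p = 6.79e-04). The log2 fold change was -1.15 without *Rag1Cre-Nfatc1fl/fl* replicate 3. With TPM it was -1.46, and the call was lost (limma adjusted p up to 0.0134).

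The regulators *Themis* and *Ubash3a* were both lower. *Themis* (chromosome 10, 28668360 to 28883818, plus strand) encodes a protein that binds the adaptor GRB2 and the phosphatase SHP-1 and is needed for thymocyte selection. Its levels were 117, 96.3 and 113 CPM in *Rag1Cre-Nfatc1fl/fl* libraries and 189, 192 and 207 CPM in *Nfatc1fl/fl* libraries, which did not overlap. The difference was -0.85 on the log2 scale (SE 0.0995, edgeR adjusted p = 0.00101), and this call was kept in 20 of 20 alternatives, with an adjusted p of at most 0.00928.

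*Ubash3a* (chromosome 17, 31207873 to 31242202, plus strand) encodes STS-2, a relative of the phosphatase STS-1 that limits signalling downstream of the TCR. It stood at 40.0, 34.3 and 33.9 CPM in *Rag1Cre-Nfatc1fl/fl* libraries, against 66.7, 70.6 and 73.3 CPM in *Nfatc1fl/fl* libraries, with a gap between the groups. The means of 36.1 ± 3.42 and 70.2 ± 3.35 CPM (SD, n = 3 each) differed by -0.96 on the log2 scale (SE 0.0976, edgeR adjusted p = 5.62e-04). This call was lost with TPM (log2 fold change -1.06 and -1.09, limma adjusted p up to 0.0155).

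**Figure D2:**
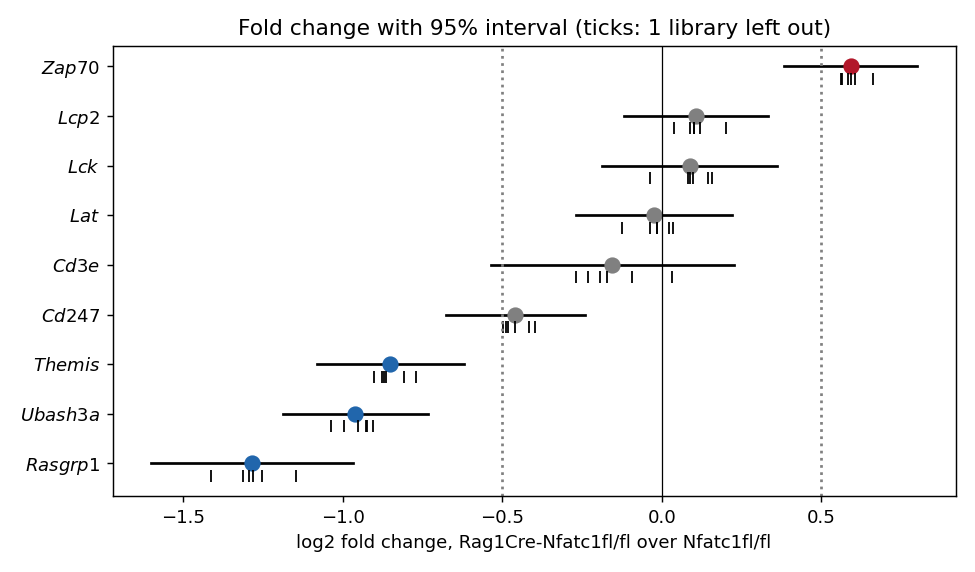
Log2 fold change of *Rag1Cre-Nfatc1fl/fl* over *Nfatc1fl/fl* for the 9 genes, with the 95% interval of the edgeR fit as bars, red for called higher, blue for called lower and grey for not called. Ticks below each bar are the values with 1 library left out, and dotted lines mark the minimum of 0.5 in either direction. *Cd3e*, *Lck* and *Lat* have ticks on both sides of 0, and those of *Rasgrp1* lie between -1.41 and -1.15.

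Levels of different genes were compared as TPM, which divides exon reads by exon length. In *Rag1Cre-Nfatc1fl/fl* libraries the order was *Lck* (677), *Zap70* (427), *Lat* (385), *Cd3e* (176), *Lcp2* (170), *Cd247* (152), *Rasgrp1* (136), *Ubash3a* (24.2) and *Themis* (21.0), as mean TPM of 3 libraries. In *Nfatc1fl/fl* libraries it was *Lck* (715), *Lat* (438), *Rasgrp1* (366), *Zap70* (316), *Cd247* (232), *Cd3e* (213), *Lcp2* (173), *Ubash3a* (51.0) and *Themis* (42.7). *Rasgrp1* thus took rank 7 in *Rag1Cre-Nfatc1fl/fl* libraries and rank 3 in *Nfatc1fl/fl* libraries, and *Zap70* took rank 2 in *Rag1Cre-Nfatc1fl/fl* and rank 4 in *Nfatc1fl/fl* libraries. In *Rag1Cre-Nfatc1fl/fl* libraries *Cd3e*, *Lcp2*, *Cd247* and *Rasgrp1* had overlapping ranges (94.6 to 209.9 TPM together), as had *Zap70* and *Lat* (393 to 468 and 375 to 393) and *Ubash3a* and *Themis*. In *Nfatc1fl/fl* libraries the only neighbours whose ranges overlapped were *Cd247* and *Cd3e* (219 to 252 and 202 to 236 TPM). TPM was not scaled by TMM, and on the log2(TPM + 1) scale the median of all tested genes lay at -0.12.

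Reads inside introns, which can come from RNA that is not yet spliced, gave a second readout of the same libraries. In a separate edgeR fit on intron reads 3.78% of 6158 tested genes were called, and of the 9 genes *Ubash3a* and *Rasgrp1* were called, both lower. *Ubash3a* had 45, 69 and 62 intron reads in *Rag1Cre-Nfatc1fl/fl* libraries and 169, 132 and 163 in *Nfatc1fl/fl* libraries, which is -1.17 on the log2 scale (SE 0.210, edgeR adjusted p = 0.00116). *Rasgrp1* had 157, 193 and 146 intron reads in *Rag1Cre-Nfatc1fl/fl* libraries and 372, 308 and 332 in *Nfatc1fl/fl* libraries, which is -0.82 on the log2 scale (SE 0.187, edgeR adjusted p = 0.00918). Both sets of intron reads parted the genotypes without overlap, as did those of *Cd247*, *Lat* and *Zap70*, which were not called in this fit. The share of all its genes without overlap was not computed. The *Rasgrp1* call was lost in each of the 6 fits with 1 library left out, and that of *Ubash3a* without *Nfatc1fl/fl* replicate 1.

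For *Themis* the intron reads were 187, 128 and 117 in *Rag1Cre-Nfatc1fl/fl* libraries and 255, 179 and 227 in *Nfatc1fl/fl* libraries. They overlapped, and the log2 fold change of -0.39 did not pass (edgeR adjusted p = 0.313). For *Zap70* they were 77, 87 and 86 in *Rag1Cre-Nfatc1fl/fl* libraries and 68, 60 and 45 in *Nfatc1fl/fl* libraries, which did not overlap, with a log2 fold change of 0.75 and an edgeR adjusted p of 0.0434 above the threshold. The intron share of all reads of a gene was 2.53 ± 0.546% in *Rag1Cre-Nfatc1fl/fl* libraries and 1.89 ± 0.124% in *Nfatc1fl/fl* libraries for *Rasgrp1* (SD, n = 3 each, two-sided exact permutation p = 0.2). For *Themis* it was 6.28 ± 0.968% in *Rag1Cre-Nfatc1fl/fl* libraries and 4.93 ± 0.845% in *Nfatc1fl/fl* libraries (exact permutation p = 0.2), where 3 against 3 libraries cannot go below 0.1, so a difference in intron share was not detectable. The share was lower in *Rag1Cre-Nfatc1fl/fl* libraries for *Ubash3a* (7.99 ± 2.46% against 9.68 ± 1.36%, exact permutation p = 0.4). For *Lat* it was also lower (0.109 ± 0.0504% against 0.180 ± 0.0240%, exact permutation p = 0.1), without overlap. Means were lower for *Cd3e*, *Cd247*, *Lck* and *Lcp2* too, and higher for *Zap70*. For *Lcp2* the difference was 0 with unique reads only, and its unique intron reads were too few to be tested. Over all genes summed, the intron share was 2.07 ± 0.114% in *Rag1Cre-Nfatc1fl/fl* libraries and 2.42 ± 0.0994% in *Nfatc1fl/fl* libraries.

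**Figure D3:**
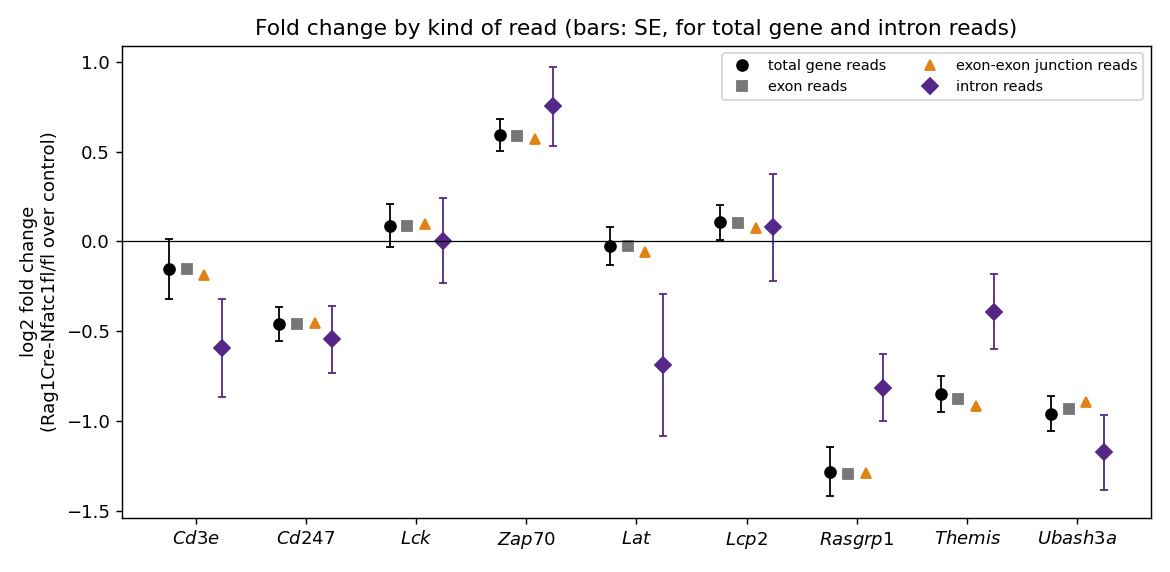
Log2 fold change of *Rag1Cre-Nfatc1fl/fl* over *Nfatc1fl/fl* for the 9 genes by kind of read, with SE bars for total gene reads and for intron reads. Exon and exon-exon junction reads lie close to the total. Intron reads were scaled by TMM among themselves, not with the factors of the total gene reads. Intron reads lie nearer 0 for *Rasgrp1* (-0.82 beside -1.28) and *Themis* (-0.39 beside -0.85). They lie farther from 0 for *Ubash3a* (-1.17 beside -0.96), *Zap70* (0.75 beside 0.59) and *Cd247* (-0.55 beside -0.46). The same holds for *Cd3e* (-0.59 beside -0.15) and *Lat* (-0.69 beside -0.02). Intron reads per library were few for *Lat* (5 to 20), *Cd3e* (30 to 79) and *Zap70* (45 to 87). Intron SEs were 0.210 for *Ubash3a*, 0.218 for *Zap70* and 0.185 for *Cd247*. With factors of the total gene reads, intron reads of *Rasgrp1* lay at -0.90 and those of *Themis* at -0.49. *Ubash3a* lay at -1.26, *Zap70* at 0.66 and *Cd247* at -0.64 with these factors.

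In a wider list of 68 genes of the pathway, chosen with earlier results of these data known and including the 9, 4 genes were called higher, 6 lower and 58 not, with a median log2 fold change of -0.056. This is 14.7% called, and without the 9 it was 10.2% (3 higher and 3 lower of 59), beside the 9.98% of all tested genes. By role, none of 5 receptor subunits was called, and of 7 kinases only *Zap70*. Of 19 adaptors *Nck2* (-1.20, adjusted p = 5.77e-04) and *Grap2* (-0.74, adjusted p = 0.00363), which encode adaptors that bind SLP-76, were lower by edgeR. Of 14 exchange factors, lipases and downstream enzymes *Rasgrp1* and its relative *Rasgrp2* (-0.64, adjusted p = 0.0066) were lower by edgeR.

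Of 23 regulators 3 were higher and 2, *Themis* and *Ubash3a*, lower. The higher ones were *Lax1* (1.11, edgeR adjusted p = 4.99e-04), an inhibitory membrane adaptor, and *Cd5* (0.70, 0.0033) and *Cd6* (0.57, 0.00556), membrane proteins that dampen TCR signals. The calls of *Nck2* and *Lax1* were kept with each of the 6 libraries left out, that of *Grap2* in 2 of 6 such fits, and those of *Cd5*, *Cd6* and *Rasgrp2* in 1 of 6. With the trend over exon length removed, *Rasgrp2* (-0.47, edgeR adjusted p = 0.0506) and *Cd5* (0.59, 0.0136) were not called, and with library size only *Cd5* (0.61, 0.0121) and *Cd6* (0.47, 0.0244) were not. With TPM and a pseudocount of 0.1 none of these 6 genes was called (limma adjusted p of 0.0114 for *Nck2* to 0.141 for *Cd6*). With a pseudocount of 1 only *Nck2* was (-1.36, limma adjusted p = 0.00964). Among the most abundant genes that were not called, *Cd3d*, which encodes CD3δ, had 567, 603 and 858 CPM in *Rag1Cre-Nfatc1fl/fl* libraries and 457, 474 and 446 CPM in *Nfatc1fl/fl* libraries (log2 fold change 0.56, edgeR adjusted p = 0.0364). The log2 fold changes were 0.18 for *Cd3g* (CD3γ), -0.29 for *Vav1* (an exchange factor), 0.10 for *Csk* (the kinase that inhibits Lck) and 0.53 for *Ptpn6* (the phosphatase SHP-1). *Grb2*, which encodes a general Ras pathway adaptor, had -0.43 with an edgeR adjusted p of 0.00597, under the fold minimum.

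**Figure D4:**
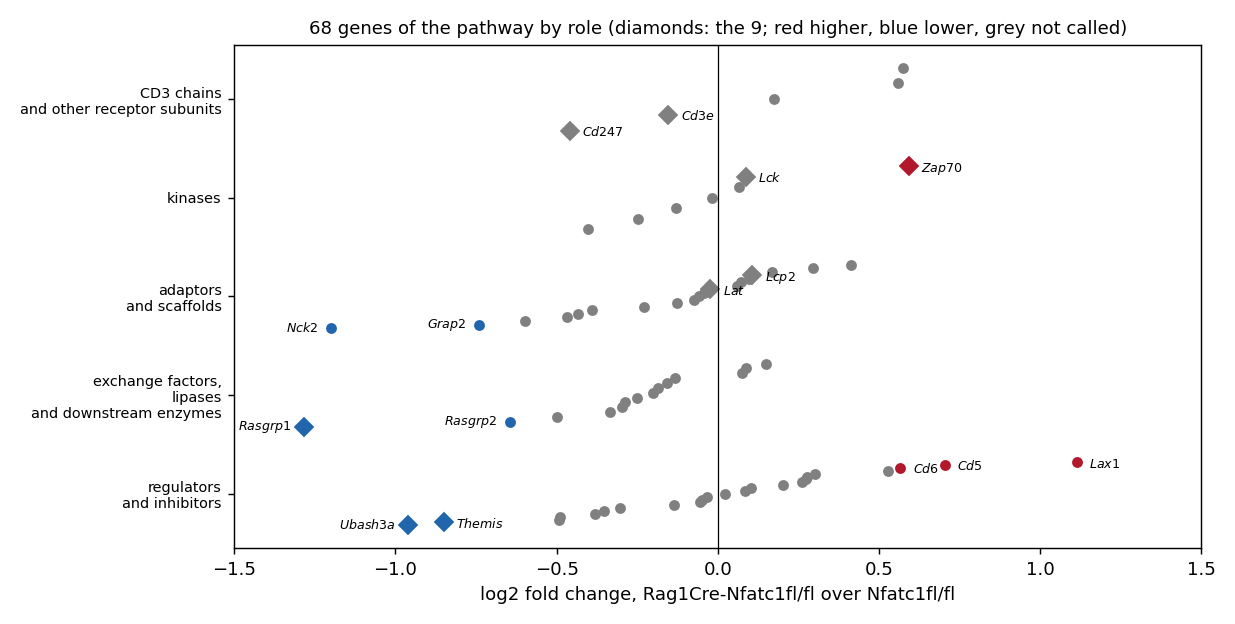
Log2 fold change of *Rag1Cre-Nfatc1fl/fl* over *Nfatc1fl/fl* for the 68 pathway genes by role, each point a gene, diamonds for the 9, red for called higher, blue for called lower and grey for not called. Receptor subunits are all grey, and the regulators hold calls in both directions, with *Lax1* at 1.11 and *Ubash3a* at -0.96.

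Among 9684 genes averaging 5 CPM or more, those whose log2 CPM followed the called genes most closely over the 6 libraries were ranked by the root-mean-square distance after centring each gene. Predicted genes and segments of TCR and immunoglobulin genes had been left out of these. Closest to *Rasgrp1* were *Il6st* (distance 0.0625), *Etv5* (0.0717) and *Nck2* (0.0801), and closest to *Zap70* were *Fkbp1a* (0.0426), *Rcl1* (0.0444) and *Ctsz* (0.0447). Closest to *Themis* were *Gsn* (0.0316), *Plscr3* (0.0436) and *Zfp667* (0.0481), and to *Ubash3a* *Mex3a* (0.0333), *St8sia1* (0.0374) and *Ahr* (0.0482). With 6 libraries in 2 groups the distances rest mainly on the difference between the genotypes.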

How the data were processed

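RNA-seq of γδ thymocytes was available for 3 *Rag1Cre-Nfatc1fl/fl* and 3 *Nfatc1fl/fl* libraries, grouped by the labels. The authors, as their methods state, trimmed 59-base single-end reads (adaptor and first 10 bases), aligned them with STAR 2.7 to GRCm38 (Ensembl 98) and counted them with featureCounts. The deposited tables hold whole-number read counts per gene (total, unique, exon, junction and intron), though their layout is not that of featureCounts. TPM was recomputed here from exon reads and exon length and matched the deposited TPM within 5.0e-07, which with the deposited RPKM was not used. Unique reads were 94.1% to 95.4% of the total, and genes with close relatives can share reads. Replicates of 1 genotype differed by more than sampling noise (chi-square per degree of freedom 5.91 to 49.2), so none were merged.

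The 9 genes, the wider lists and the rules were chosen with earlier results of these data known. Total gene reads were fitted by quasi-likelihood in edgeR 4.0.16 under R 4.3.3 (filterByExpr, TMM, genotype as the only term, Benjamini-Hochberg over 13185 genes, common biological coefficient of variation 0.154). Calls required an adjusted p under 0.01 together with a log2 fold change beyond 0.5 either way. The study set these cut-offs on DESeq2 results, not on edgeR. Intron reads were fitted separately. Named genes were the 9, called genes of the wider list, its 2 most abundant genes per role by TPM, the 3 nearest genes of each called one, marker genes and *Nfatc1*. The result of 1 marker gene of the thymocyte list is not reported here. Alternatives were other scalings, no filter, DESeq2 1.42.0, limma 3.58.1, other kinds of reads, TPM, a removed exon-length trend, segments of TCR and immunoglobulin genes left out, other thresholds, each library left out and a replicate block. The fit was tested on simulated data. Plots used matplotlib 3.10.9 (Python 3.11.15).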

Additional observations from a re-analysis of the deposited data

How the results depend on the processing

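Of the 9 genes, 1 was called higher and 3 lower. With scaling by library size only 0 were higher, and with log2(TPM + 1) and log2(TPM + 0.1) in limma 0 were higher and 1 lower, while the median of all genes moved to -0.11, -0.12 and -0.15. In fits with 1 library left out, 0 to 1 were higher and 3 lower. The 0 arose without *Rag1Cre-Nfatc1fl/fl* replicate 2 or any 1 of the *Nfatc1fl/fl* libraries. The cause of these changes was not tested. In the pathway list 1 was higher and 11 lower with library size only, 0 and 3 with log2(TPM + 1), 0 and 2 with log2(TPM + 0.1), and 1 to 5 higher and 4 to 9 lower with 1 library left out. Over all tested genes 853 were higher and 463 lower. With DESeq2, the program the study used, 1260 were higher and 754 lower, and with junction reads 585 and 265. Counts were 352 and 172 with log2(TPM + 1), 351 and 147 with log2(TPM + 0.1), 1345 and 933 at an adjusted p under 0.05, and 380 to 1131 higher and 100 to 665 lower with 1 library left out. Of intron reads, 0 to 1 of the 9 were called lower with 1 library left out, against 2 with all.

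Signs that turned belonged to values that passed no threshold. The log2 fold change of *Lck* was -0.0203 with library size only, -0.0776 with log2(TPM + 1) and -0.0777 with log2(TPM + 0.1), and that of *Lcp2* -0.0529 and -0.0533 with these TPM scales. Leaving out 1 library at a time gave -0.269 to 0.0328 for *Cd3e*, -0.0368 to 0.158 for *Lck* (both extremes without a *Rag1Cre-Nfatc1fl/fl* library) and -0.123 to 0.0341 for *Lat*. The positive value of *Cd3e* and the negative one of *Lck* were those without *Rag1Cre-Nfatc1fl/fl* replicate 3. For intron reads *Lck* was at -0.0045 with RLE factors, -0.0957 with factors of the total gene reads, -0.0208 without a filter, -0.0064 with the replicate block and -0.292 to 0.169 with 1 library left out, and *Lcp2* at -0.0082 with factors of the total gene reads and -0.276 to 0.399 with 1 library left out. The intron share differed between genotypes by -0.222 to 0.0091 percentage points for *Lck*, -0.0292 to 0.0887 for *Zap70* and -0.236 to 0.0729 for *Lcp2* with 1 library left out. With unique reads only the difference for *Lcp2* was 0, so its intron values rest on reads that do not map uniquely.

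Deviations from the group means correlated at 0.026, 0.183 and 0.0055 between same-numbered libraries of the genotypes. Between differently numbered libraries these correlations ran from -0.150 to 0.0937. Deviations within a group are not independent of each other, and whether the replicate numbers pair the samples was not tested. With the replicate number as a block the 9 genes kept 1 higher and 3 lower calls, the pathway list had 5 and 5, with *Rasgrp2* no longer called (edgeR adjusted p = 0.0137), and all tested genes 778 and 393. Intron reads of *Lat* numbered 5 to 20 per library, which limits that readout.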
